A study of Mus musculus with 6 samples.

Results

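Immediate early genes are the first genes that a lymphocyte transcribes when its antigen receptor or a costimulatory receptor fires, because the factors that switch them on are already present and need only be modified. The cells described here are splenic B cells in which several such genes were detected at once, 108 of 9570 B cells (1.13%, exact binomial 95% interval 0.927 to 1.36%) and of 20161 cells kept in all. They were chosen by their own readout. A kept barcode (300 to 5000 genes, at most 10% mitochondrial UMIs) with at least 2 UMIs of Cd79a, a signalling chain of the B cell receptor, and 0 UMIs of Cd3d, Cd3e and Cd3g was taken as a B cell, and a B cell with at least 3 of the 6 genes Nr4a1, Egr1, Egr2, Egr3, Myc and Atf3 detected was taken as a member. A UMI (unique molecular identifier) counts 1 captured molecule. The other 9462 B cells of the same gates serve as the reference, and CPM is the number of UMIs of a gene in every 1000000 UMIs, both summed over the cells of a population.

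The cells came from CITE-seq of splenocytes, in which antibodies carrying DNA tags are counted beside the RNA of each cell, from male C57BL/6 mice of 3 groups: aged mice (20 months) injected with recombinant mouse PF4, aged mice given saline and young mice (3 months) given saline. PF4, a platelet chemokine, was given at 5 µg/mL in 100 µL by tail vein 8 times over 24 days, on the same schedule as saline, and the splenocytes of 5 mice were pooled in each group. The 6 labelled samples (1 RNA and 1 antibody library for each group) share 1 matrix, with 29005 barcodes, 31053 genes and 34 antibodies. The number at the end of a barcode marks 1 of 3 libraries, here called 1, 2 and 3, and none of the sources used here says which mouse group a number stands for, so neither age nor PF4 was compared. A library has no replicate and cells are not replicates, so the text gives values with exact 95% intervals that cover counting error only, and gives no p-value.

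In the B cell, antigen receptor signals reach the nucleus through calcium, through the MAP kinases and through NF-kB. Calcium and MAP kinase signals act on the serum response element and the cyclic AMP response element in front of early genes such as the EGR factors and the orphan nuclear receptor Nr4a1, whereas NF-kB turns on survival genes and its own inhibitors. Myc then raises ribosome production and growth, and the cell leaves quiescence. B cells that meet antigen without help induce much of the same early program.

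The early genes of the rule differ in the sequence just before their start sites. The 250 bases upstream of RefSeq start sites (build GRCm38.p6) are printed for 4 genes, because they carry matches to the elements named above or, in Nr4a1, only to the EGR site. Of these, 2 are rule genes, and 2 are genes of the IkB (inhibitor of NF-kB) family counted at higher levels in the members. Capitals mark the matches, and none of the 4 windows overlaps an annotated exon.
Egr2 (chr10:67537619-67537868, plus strand): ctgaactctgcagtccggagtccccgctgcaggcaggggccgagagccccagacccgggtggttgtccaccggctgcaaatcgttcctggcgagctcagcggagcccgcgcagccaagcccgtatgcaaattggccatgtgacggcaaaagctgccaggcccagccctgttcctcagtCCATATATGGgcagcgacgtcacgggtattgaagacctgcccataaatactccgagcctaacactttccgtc
Nr4a1 (chr15:101266596-101266845, plus strand): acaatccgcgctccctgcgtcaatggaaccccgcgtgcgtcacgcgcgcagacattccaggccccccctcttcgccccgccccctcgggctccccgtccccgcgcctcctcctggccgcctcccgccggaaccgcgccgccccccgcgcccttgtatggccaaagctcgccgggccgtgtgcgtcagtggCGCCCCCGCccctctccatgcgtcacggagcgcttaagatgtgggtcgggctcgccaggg
Nfkbid (chr7:30422156-30422405, plus strand): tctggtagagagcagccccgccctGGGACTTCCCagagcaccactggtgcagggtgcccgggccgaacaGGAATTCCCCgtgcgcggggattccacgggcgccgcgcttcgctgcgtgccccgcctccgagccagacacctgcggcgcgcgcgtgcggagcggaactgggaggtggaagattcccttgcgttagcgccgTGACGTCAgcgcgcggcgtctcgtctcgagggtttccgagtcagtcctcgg
Nfkbia (chr12:55492648-55492897, minus strand): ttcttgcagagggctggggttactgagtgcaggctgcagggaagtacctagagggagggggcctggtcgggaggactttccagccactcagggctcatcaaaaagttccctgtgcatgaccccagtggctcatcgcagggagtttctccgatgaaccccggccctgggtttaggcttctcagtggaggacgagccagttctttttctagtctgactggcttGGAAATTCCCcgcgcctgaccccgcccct
In the Egr2 window the capitals mark a serum response element core, which begins 72 bases before the start, and another Egr2 start site in the table has a different core match at the same distance. In Nr4a1 they mark an EGR site on the opposite strand 60 bases before the start. In Nfkbid they mark a cyclic AMP response element 51 bases and NF-kB matches 226 and 181 bases before the start, and in Nfkbia an NF-kB match 29 bases before it. A match is a description of letters and not of a bound site.

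The searches covered both strands for the cyclic AMP response element (TGACGTCA), the AP-1 site (TGAGTCA or TGACTCA), the EGR site (GCGTGGGCG or GCGGGGGCG), the serum response element core and the NF-kB consensus. Neighbouring NF-kB matches can overlap by all but 1 base. Of all 27025 genes in the table, 1.77% had the cyclic AMP response element in at least 1 window, 5.16% AP-1, 3.47% the EGR site, 1.62% the serum response core and 4.46% NF-kB. Of the 41 genes that were at least 2-fold higher in the members of every library, 32 had an entry that could be used, and 8 of these held an EGR site, 6 an NF-kB match and 1 each of the other elements. The rule gene Nr4a1 is among the 8. The 27025 genes were neither limited to genes expressed here nor matched on base composition, so enrichment of an element was not tested. Tnfaip3 and Rel also hold NF-kB matches, Dusp2, Rasgef1b and Tagap EGR sites, and the near-identical paralogs Bcl2a1b and Bcl2a1d share 1 EGR site. The NF-kB search was added after the levels had been seen.

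Members were found in every library: 17 of 1755 B cells in library 1 (0.969%, 0.565 to 1.55%), 36 of 3827 in library 2 (0.941%, 0.66 to 1.30%) and 55 of 3988 in library 3 (1.38%, 1.04 to 1.79%). The 3 intervals overlap. Among all B cells, 7848 had 0 of the 6 genes, 1374 had 1, 240 had 2, 72 had 3, 21 had 4, 15 had 5 and 0 had all 6. The median depth of members was 5761, 4013 and 4890 UMIs in libraries 1, 2 and 3, against 3363.5, 3198 and 3355 UMIs in other B cells, and single members ranged from 999 to 24794 UMIs. A deeper cell has more chances to show a gene: with B cells thinned to 2000 UMIs, 51 of 7375 (0.692%, 0.515 to 0.908%) passed the limit. The members' median mitochondrial share was 3.42, 3.95 and 3.99%, against 4.23, 4.17 and 4.28% in other B cells. Scrublet called 1 of 108 members and 77 of 9462 other B cells doublets. Ms4a1, which encodes the B cell antigen CD20, was detected in 104 of 108 members and stood at 1004, 1082 and 1083 CPM in members, against 1399, 1455 and 1470 CPM in other B cells. A further 9 B cell barcodes with at least 3 of the genes lay outside the limits for cells, 7 of them over the mitochondrial limit and 2 over the gene limit. Of 68 barcode sequences that occur in more than 1 library, 1 belongs to a member.

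The rule genes gave the members by choice, so their levels are a description. Egr3, a zinc finger factor of the EGR family, was the most widely detected of them, in 101 of 108 members and in 820 of 9462 other B cells. It was counted at 471, 1062 and 784 CPM in members of libraries 1, 2 and 3, against 30.6, 34.6 and 41.1 CPM in other B cells. Egr1 was detected in 81 members and stood at 338, 743 and 599 CPM, against 6.45, 11.4 and 12.1 CPM. Nr4a1, the nuclear receptor also known as Nur77 that tracks antigen receptor signals in mice, was detected in 74 members and stood at 169, 352 and 375 CPM, against 6.86, 7.94 and 7.82 CPM. In these 3 genes library 1 had the lowest level of the members.

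Myc was also detected in 74 members and stood at 240, 391 and 360 CPM in members, against 38.2, 17.5 and 22.0 CPM in other B cells. Egr2 was rarer, in 40 members, with 116, 106 and 95.1 CPM against 1.37, 0.89 and 1.09 CPM, levels whose intervals overlap across the members of the 3 libraries. Atf3, a stress-linked factor of the CREB family, added little to the choice: it was detected in 5 members, with 5 UMIs in library 1, 0 in library 2 and 5 in library 3. The plot of the rule genes shows the separation between the populations, which the rule itself makes. The limit of 3 genes cuts a continuous range, with 240 B cells just outside it at 2 genes and 72 just inside it at 3 genes.

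**Figure D1:**
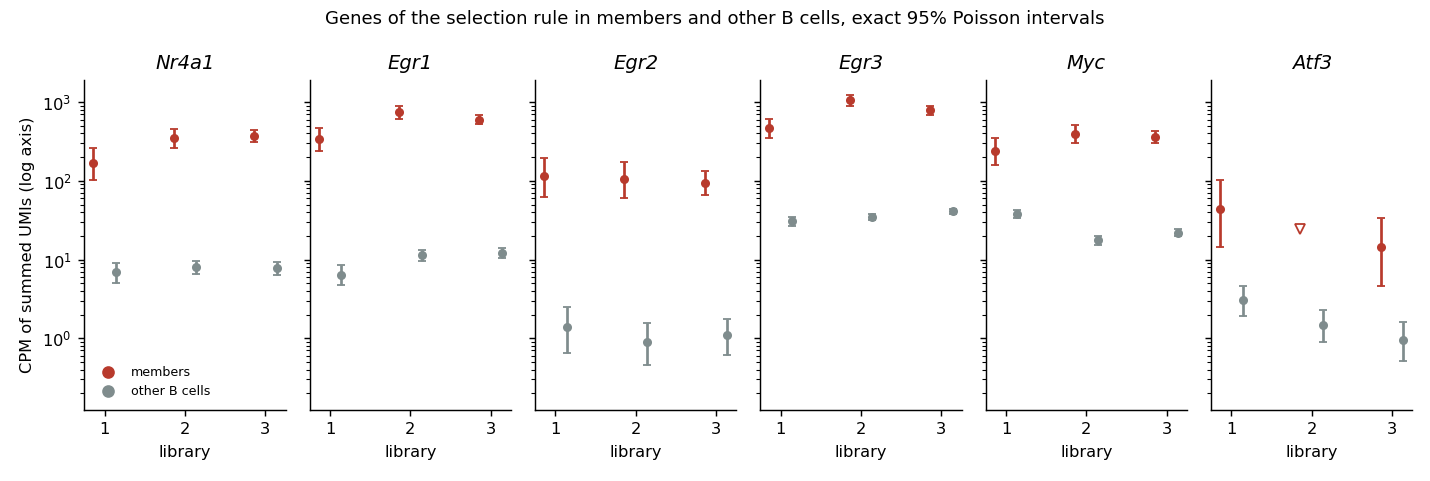
Each panel plots the CPM of 1 gene of the selection rule (log axis) in members (red) and other B cells (grey) of libraries 1, 2 and 3, with exact 95% Poisson intervals, and the open triangle marks the upper limit of a count of 0. Egr3 in members was 471, 1062 and 784 CPM and Atf3 had 0 UMIs in members of library 2.

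The rule genes were detected in several combinations. Nr4a1, Egr3 and Myc without the other rule genes made up 19 members, Egr1, Egr3 and Myc 16, Nr4a1, Egr1 and Egr3 15, Nr4a1, Egr1, Egr3 and Myc 12, and all but Atf3 together 15. At these depths a gene that was not detected may still be expressed.

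Across the transcriptome, 41 of 5255 genes with a mean of at least 25 CPM in the 2 populations were at least 2-fold higher in the members of every library (0.78% of genes tested, 5 rule genes among them) and 23 were at most 0.5-fold (0.438%). The rule used the same cells, so the shares are given as a description. Of the 36 genes outside the rule, 20 belong to the lists set up for this description, among them 9 NF-kB targets, 4 other early genes and 3 genes of ribosome biogenesis. The lists were set up with earlier results of these data known. Against other B cells matched to the members on UMI number (540 cells, 5 for each member), 47 genes were higher, 34 of the 41 among them, but 5 were lower, 3 of the 23 among them. Most lower calls thus depended on the choice of reference cells. The limit of 3 rule genes also mattered: with a limit of 2 or 4 genes, 41 or 44 genes were higher, of which 22 or 21 were among the 41. The median log2 ratio over all genes tested was 0.01, so more of these genes stood above other B cells than below. The counts for each list below are to be read beside these shares and this median.

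Early response genes were higher unevenly. Of 22 immediate early genes outside the rule, 11 reached 25 CPM and could be called, 4 were called higher (Junb, Ier2, Zfp36l1 and Mafk) and 0 lower, and 17 of 22 had a pooled CPM above that of other B cells. Their median log2 ratio was 0.76 (pseudocount of 5 CPM), and by library 0.17, 0.61 and 0.80. Over all 5255 genes tested, 41 (0.78%) were called higher and the median was 0.01. Junb, an AP-1 subunit, stood at 364, 405 and 352 CPM in members, against 93.2, 90.0 and 86.4 CPM in other B cells. Ier2 stood at 276, 332 and 205 CPM, against 61.6, 68.7 and 62.8 CPM. Both genes were between 3.26-fold and 4.83-fold higher in each library.

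Zfp36l1, an RNA-binding protein that shortens the life of AU-rich mRNAs, stood at 738, 1121 and 1060 CPM in members, against 301, 389 and 453 CPM in other B cells. The long non-coding RNA Gm26669, which was also called higher (49.2 against 14.5 CPM, pooled), lies within Zfp36l1 on the opposite strand (chr12:80108034-80113000), so reads of the 2 genes may be mixed if the counting ignored strand, which was not checked. Nr4a3, the paralog of Nr4a1, was sparse, with 8 UMIs in 6 members (13.1 against 0.535 CPM). Fos stayed near the floor, with 8 UMIs in 7 members, 13.1 CPM against 7.33 CPM, and Jun stood at 63.9 against 36.4 CPM. Fosl2, Nr4a2 and Egr4 had 0 UMIs in members, which allows up to 6.04 CPM. Egr and Nr4a1 messages were thus found beside few Fos messages.

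Heat shock genes can rise together with Fos, Jun and Dusp1 when tissue is dissociated. Hspa1a, Hspa1b and Hspb1 had 0 UMIs in all 108 members, which allows up to 6.04 CPM for each gene, and stood at 0.366, 0.366 and 0.451 CPM in other B cells. The levels in other B cells lie so far under that limit that these 0 counts cannot tell the 2 populations apart. Dusp1, a phosphatase of MAP kinases, had 4 UMIs (6.55 against 6.74 CPM), whereas Jun, given above, stood higher in members. The part of handling in the early genes, with Junb, Ier2 and the rule genes among them, was not tested. The constitutive chaperones Hspa8 (1150 against 690 CPM) and Hsp90ab1 (1991 against 1309 CPM) stood higher in each library but under 2-fold. Dnaja1, a cochaperone, was 2.14-fold, 1.38-fold and 1.51-fold higher. Of 10 heat shock genes, 6 were tested and 0 called, but 7 stood above other B cells. Their median log2 ratio was 0.36 (0.01 over all genes tested) and their summed level 4167 against 2680 CPM.

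Dusp2 and Nab2 were the feedback genes called higher. Dusp2, a nuclear phosphatase that switches MAP kinases off, was detected in 81 members and stood at 355, 730 and 452 CPM, against 69.7, 96.0 and 85.3 CPM in other B cells. It was also the only 1 of 10 MAP kinase feedback genes that reached 25 CPM and could be called. The others were sparse, Dusp5 for instance with 12 UMIs (19.7 against 7.33 CPM) and Dusp6 with 10 UMIs (16.4 against 28.4 CPM). Nab2, a corepressor that binds EGR factors and is itself an EGR target, stood at 35.5, 53.1 and 69.1 CPM, against 12.5, 12.3 and 14.5 CPM. It was the 1 gene called of 4 tested among 5 EGR corepressors and partners.

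The list with most called genes was that of NF-kB targets. Over all 5255 genes tested, 41 (0.78%) were called higher. The list was set up with earlier results of these data known, so its counts are a description. Of 17 genes listed as targets or feedback of NF-kB, 16 were tested, 9 were called higher and 0 lower, 15 had a pooled level above that of other B cells, and the median log2 ratio was 1.50 (1.05, 1.26 and 1.53 by library). Of the 9 genes, Nfkbia, Nfkbid and Nfkbiz belong to the IkB (inhibitor of NF-kB) family, and Tnfaip3 is an inhibitor outside it. The others were the subunit Rel, the survival genes Bcl2a1b and Bcl2a1d, the adaptor Traf1, and Mir155hg, the host transcript of miR-155. Rel was found in 103 of 108 members and stood at 631, 1208 and 905 CPM, against 264, 305 and 310 CPM in other B cells. Nfkbia stood at 471, 730 and 545 CPM, against 224, 207 and 182 CPM. Tnfaip3, the ubiquitin-editing inhibitor A20, stood at 62.2, 146 and 95.1 CPM, against 16.7, 18.1 and 17.3 CPM.

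Nfkbid, a nuclear inhibitor-like protein that B cells need for responses to T-independent antigens in mice, had the largest pooled ratio of this list (467 against 30.2 CPM, 15.5-fold). It was detected in 6 of 17 members in library 1, 28 of 36 in library 2 and 33 of 55 in library 3. Its level in members was 97.8 CPM in library 1 (interval 48.8 to 175), 683 CPM in library 2 (interval 558 to 829) and 493 CPM in library 3 (interval 422 to 572), against 31.8, 30.0 and 29.6 CPM in other B cells. The interval of library 1 lies under those of libraries 2 and 3, while the other B cells of the libraries were alike. Library 1 holds 17 members, and 2 unusual cells described below supply 32.1% of their UMIs. Without these cells Nfkbid stood at 144 CPM in library 1, beside 683 and 556 CPM in libraries 2 and 3, so library 1 stayed lowest.

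By point value, library 1 was also the lowest for Bcl2a1b, Bcl2a1d and Mir155hg. Bcl2a1b, a survival protein of the Bcl-2 family, stood at 169, 484 and 328 CPM in members, against 57.7, 49.8 and 46.2 CPM in other B cells, and its paralog Bcl2a1d at 79.99, 159 and 205 CPM, against 26.6, 26.6 and 21.4 CPM. The 2 genes are nearly identical, so reads may be split between them, and the third paralog of the list, Bcl2a1a, had 0 UMIs in members. Without the 4 unusual cells Bcl2a1b stood at 236, 484 and 345 CPM and Bcl2a1d at 118, 159 and 207 CPM. No intervals are given for these levels, so the order of the libraries is a description. With all members, the Bcl2a1d intervals of libraries 1 and 2 overlap (36.6 to 152 and 102 to 237 CPM). Mir155hg stood at 35.5, 159 and 104 CPM, against 10.2, 10.7 and 9.58 CPM. It was concentrated, with 64 UMIs in 20 members, 13 of them in 1 cell. Nfkbie (129 against 56.8 CPM) and Relb (93.4 against 49.3 CPM) did not reach 2-fold in every library. Birc3 stood at 143 against 129 CPM and Tnip1 at 29.5 against 36.1 CPM.

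**Figure D2:**
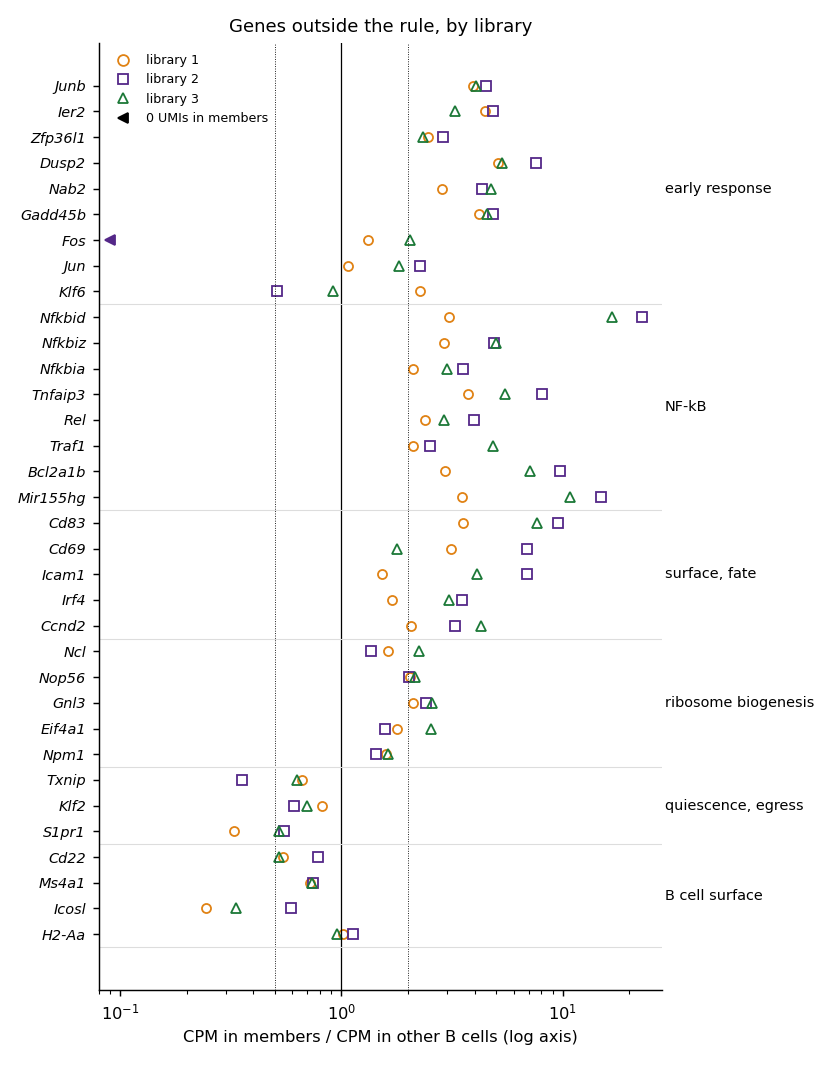
The CPM in members divided by that in other B cells (log axis) is plotted for named genes outside the rule, with 1 symbol for each library, dotted lines at 0.5-fold and 2-fold, and a filled triangle at the left edge for 0 UMIs in members. Nfkbid, Bcl2a1b and Mir155hg spread more between libraries than Junb or Gadd45b, and S1pr1, Klf2, Ms4a1 and Cd22 lie left of 1 in each library.

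Among surface genes, Cd83 was found most widely. Cd83, a stabiliser of MHC class II and CD86 on activated B cells, was detected in 88 of 108 members (15, 29 and 44 in libraries 1, 2 and 3) and stood at 311, 803 and 634 CPM, against 87.6, 84.6 and 82.6 CPM in other B cells. With every cell thinned to 1000 UMIs it was detected in 42.1% of members and 8.16% of other B cells. It was the 1 gene called of 10 tested among 13 activation surface genes. Cd69, the early activation antigen that retains lymphocytes in tissue, stood at 151, 418 and 158 CPM, against 48.2, 61.0 and 89.1 CPM, under 2-fold in library 3. Icam1, an adhesion molecule for T cell contact, stood at 53.3, 252 and 153 CPM, against 34.9, 36.6 and 37.4 CPM, under 2-fold in library 1. The costimulatory ligand genes Cd86 (36.0 against 23.6 CPM) and Cd80 (6.55 against 5.69 CPM) stayed sparse, and Icosl, the ligand of ICOS on T cells, stood at 42.6 against 108 CPM.

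Factors of later B cell fate were mixed. Irf4, which is needed for class switching and plasma cell formation, stood at 79.99, 192 and 164 CPM in members, against 47.5, 55.0 and 53.7 CPM in other B cells. Bhlhe40 stood at 44.4, 39.8 and 121 CPM, against 12.8, 26.0 and 16.0 CPM, with 20 of its 28 positive members in library 3. Nfatc1, the calcium-responsive factor, stood at 254 against 127 CPM. Bach2 (188 against 186 CPM), Bcl6 (50.8 against 45.0 CPM) and Spib (187 against 217 CPM) were close in the 2 populations. Of 12 activation transcription factors, 10 were tested and 0 called.

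Several called genes lay outside the lists. Gadd45b, a stress sensor and NF-kB target, stood at 151, 159 and 138 CPM in members, against 36.1, 32.8 and 30.4 CPM in other B cells, and Tgif1, a repressor of TGF-beta signalling, at 142, 126 and 135 CPM, against 22.1, 21.7 and 27.5 CPM. Their levels in members lay close in the 3 libraries. Rilpl2, Rasgef1b and Tagap, the last a GTPase-activating protein of lymphocytes, had pooled ratios of 5.91, 4.75 and 4.67. Kdm6b, the demethylase of histone H3 lysine 27, stood at 97.8, 265 and 205 CPM, against 30.5, 33.3 and 34.3 CPM. The kinase Pim1, the secreted amino acid oxidase Il4i1 and the kinase Mapk6 were also called, with pooled ratios of 3.40, 4.75 and 3.24.

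Growth genes were higher by small factors. All 26 genes of ribosome biogenesis and related Myc targets had a pooled level above that of other B cells. Of these, 22 were tested, 3 were called higher (Nop56, Pes1 and Gnl3) and the median log2 ratio was 0.62 (0.50, 0.26 and 0.82 by library). Over all 5255 genes tested, 41 (0.78%) were called higher and the median was 0.01. Against cells matched on UMI number the median was 0.45 and none of the 3 was called. Ncl, the nucleolar RNA-binding protein, stood at 1209, 936 and 1660 CPM in members, against 747, 689 and 741 CPM in other B cells and 864 CPM in the matched cells pooled. Eif4a1, the helicase of translation initiation, stood at 382, 299 and 481 CPM, against 216, 190 and 190 CPM. Glycolytic genes were closer: Ldha stood at 182 against 125 CPM, Gapdh at 377 against 375 CPM, and of 11 genes 8 were tested and 0 called.

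The D-type cyclin Ccnd2, which B cell receptor signals induce, stood at 222, 259 and 380 CPM in members, against 107, 79.7 and 89.0 CPM in other B cells, and was the 1 gene called of 9 tested among 10 cell cycle genes. Proliferation genes were found in few members. Mki67 had 112 UMIs in 4 members, 84 and 26 of them in 2 cells, and Top2a had 73 UMIs in 8 members. Without the 4 unusual cells described below, Mki67 stood at 3.76 CPM, against 61.0 CPM in other B cells.

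Genes of quiescence and of egress mostly stood lower, with 0 of the 9 and 10 genes tested past the limit in every library. S1pr1, the receptor by which lymphocytes leave tissue and a surface partner that CD69 removes, stood at 62.2, 139 and 144 CPM in members, against 191, 252 and 277 CPM in other B cells. Txnip stood at 240, 139 and 239 CPM, against 362, 391 and 381 CPM, and Klf2, which drives S1pr1, at 489, 338 and 326 CPM, against 597, 555 and 465 CPM. The median log2 ratio was -0.50 over 10 quiescence genes (-0.23, -0.13 and -0.66 by library) and -0.49 over 11 genes of homing and egress (-0.17, -0.38 and -0.66). Pooled, 2 of the 10 quiescence genes and 3 of the 11 homing and egress genes stood above other B cells. The median over all genes tested was 0.01. Gpr183, which guides activated B cells to the follicle edge, stood at 204, 491 and 256 CPM against 155, 206 and 198 CPM. Btg1, of the quiescence list, stood at 898, 1639 and 1141 CPM against 726, 986 and 1055 CPM.

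The B cell receptor list stood slightly lower, with 3 of 16 genes above the level of other B cells. Its median log2 ratio was -0.20 (0.01 over all genes tested). The inhibitory receptor Cd22 stood at 213, 445 and 282 CPM in members, against 392, 566 and 540 CPM in other B cells. Fcgr2b, the inhibitory Fc receptor, stood at 81.9 against 144 CPM, and the adaptor Sla, which lowers receptor levels, at 37.7 against 87.7 CPM. MHC class II messages were level: H2-Aa stood at 3057, 3835 and 2965 CPM, against 3015, 3391 and 3117 CPM. Of 7 MHC class II genes, 0 were called.

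By marker genes the members were not of a single B cell subset. Fcer2a, which encodes CD23 of follicular B cells, stood at 570 against 511 CPM and was detected in 80 members, and Cr2, which marginal zone B cells express most, stood at 465 against 530 CPM. Among B cells with at least 2 UMIs of Fcer2a, 67 of 4476 were members (1.50%, 1.16 to 1.90%), among those with at least 2 UMIs of Cr2 and 0 of Fcer2a 12 of 921 (1.30%, 0.675 to 2.27%), and among those with a UMI of Bhlhe41, a B1 cell factor, 12 of 644 (1.86%, 0.966 to 3.23%), at median depths of 3413, 3828 and 5714.5 UMIs. These 3 intervals overlap. Of the 12 members with Bhlhe41, 7 were in library 3, out of 125 such cells (5.60%, 2.28 to 11.2%), against 1 of 264 (0.379%, 0.00959 to 2.09%) in library 2 and 4 of 255 (1.57%, 0.429 to 3.97%) in library 1. These cells had median depths of 6891 UMIs in library 3, 4672 UMIs in library 2 and 6367 UMIs in library 1, and the part of depth in these shares was not tested. The transitional marker Vpreb3 stood at 146 against 218 CPM.

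Of the 23 genes called lower, 7 were haemoglobin genes or genes of the myeloid marker list (Hbb-bs, Hbb-bt, Hba-a1, Hba-a2, S100a8, S100a9 and Lyz2) and 4 were immunoglobulin genes (Igkc, Ighg2b, Ighg2c and Ighg3). Ngp, a granule protein of neutrophils, and Car2 and Slc25a37, which erythroid cells express strongly, were also called lower and are in no marker list. Hbb-bs stood at 373, 46.4 and 63.4 CPM in members, against 7191, 1130 and 1174 CPM in other B cells, so the level in both populations was highest in library 1. The 4 erythroid markers summed to 507, 79.6 and 80.7 CPM, against 10031, 1565 and 1689 CPM, with Alas2 at 0 in members. The 6 myeloid markers summed to 329, 73.0 and 176 CPM, against 3217, 499 and 704 CPM. Cells of both populations with 5 or more haemoglobin or 5 or more myeloid marker UMIs were then left out: 98 members and 8449 other B cells stayed, and 16 genes were then lower, 6 of the 23 among them, whereas 45 were higher, 36 of the 41 among them.

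Igkc stood at 6043, 7073 and 5915 CPM in members, against 34030, 18972 and 11871 CPM in other B cells, and Ighg2c at 0, 6.64 and 23.0 CPM, against 252, 255 and 463 CPM. Both were called lower, but Ighg2c was found in 9 members with 1 UMI each. Ighg2b had 61 of its 66 UMIs in 1 member. Jchain, which antibody-secreting cells make in bulk, stood at 1776, 598 and 442 CPM in other B cells, and the part of such cells in the immunoglobulin calls was not tested. Among the other lower genes Slpi, an inhibitor of proteases, had 5 UMIs in 3 members (8.19 against 131 CPM) and B3gnt5, a glycosyltransferase, stood at 35.5, 86.3 and 86.4 CPM, against 144, 180 and 190 CPM. The T cell markers summed to 88.9, 79.6 and 92.2 CPM in members, against 32.3, 53.8 and 74.4 CPM, the NK cell markers to 391, 19.9 and 5.76 CPM, against 16.6, 57.6 and 143 CPM, and the platelet genes Pf4 and Ppbp had 0 UMIs in members. The part of these markers in the early genes was not tested. Of 10 interferon response genes, 3 were tested and 0 called, and 0 had a level above that of other B cells. Their median log2 ratio was -0.42 (0.01 over all genes tested). Of 10 chemokine and cytokine genes, 3 were tested and 0 called.

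A few members carried a second set of genes. In library 1, a cell of 16428 UMIs held all 26 UMIs of Ccl3 found in members, 20 UMIs of Ccl4, 24 of Gzma and 7 of Klrb1c, with 83 NK-1.1 antibody counts, where the median member had 6, and its early genes were Egr1, Myc and Atf3. Another cell of library 1, of 19676 UMIs, held 84 UMIs of Mki67 and 12 of Gcsam, a germinal centre gene, the only UMIs of Gcsam in members. In library 3, a cell of 24794 UMIs held 599 of the 635 Jchain UMIs and 2013 of the 4285 Ighm UMIs of all members, and a cell of 18065 UMIs held 26 of Mki67. These 4 cells gave 12.9% of the members' UMIs, 32.1% in library 1, 0% in library 2 and 12.3% in library 3, and Scrublet called none of them a doublet. Without them 46 genes were higher, 38 of the 41 among them, and 30 lower, 19 of the 23 among them, and Ighm stood at 4054 CPM in members, where it was 7021 CPM with them, against 8110 CPM in other B cells.

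**Figure D3:**
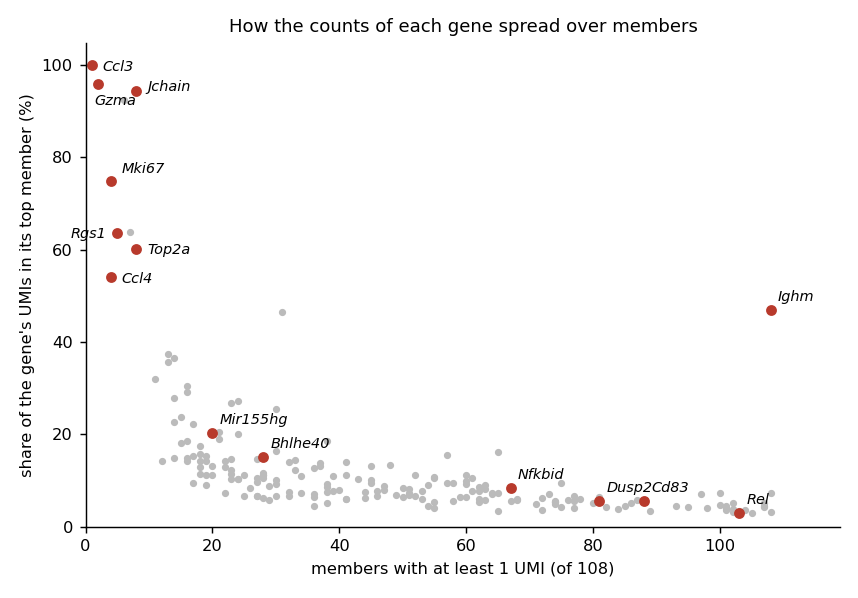
For each listed or called gene with at least 20 UMIs in members, the share of those UMIs that comes from the single member with most of them (%) is plotted against the number of members with the gene. Ccl3 (1 cell), Gzma (2 cells), Mki67 (4 cells) and Jchain (8 cells) rest on single cells, whereas Nfkbid (67 cells), Dusp2 (81 cells), Cd83 (88 cells) and Rel (103 cells) are spread over many.

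The genes outside the rule were graded by the number of rule genes detected. The classes use the same detections as the rule, so their levels are a description. They are pooled over libraries, which the classes hold in unlike parts. Cells with 0 rule genes numbered 1403, 3224 and 3221 in libraries 1, 2 and 3, those with 4 genes 3, 5 and 13, and those with 5 genes 2, 3 and 10. The part of the library in the grading was not tested. Nfkbid stood at 20.0, 56.1, 108, 322, 832 and 695 CPM in B cells with 0, 1, 2, 3, 4 and 5 rule genes, and Cd83 at 67.7, 129, 201, 488, 866 and 931 CPM. Dusp2 stood at 78.4, 105, 151, 384, 636 and 944 CPM, and Rel at 286, 323, 425, 800.1, 1103 and 1363 CPM. Bcl2a1b stood at 36.8, 79.5, 165, 264, 382 and 668 CPM, and Mir155hg at 8.35, 12.6, 32.4, 64.9, 50.9 and 406 CPM. Nfkbid, Cd83, Dusp2 and Rel differed by a larger factor between 2 and 3 detected genes, where the limit lies, than between 1 and 2, and Bcl2a1b and Mir155hg by a smaller one. Ncl was different: it stood at 633, 969, 1308, 1254, 1697 and 1717 CPM, so cells with 2 rule genes, which are not members, had the level of cells with 3 (1249 to 1368 and 1149 to 1367 CPM). S1pr1 was lower in cells with more rule genes, at 255, 237, 207, 130, 127 and 118 CPM. The median depth was 3179, 3801, 5042, 4694.5, 4830 and 4535 UMIs, and cells with 2 genes were the deepest.

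**Figure D4:**
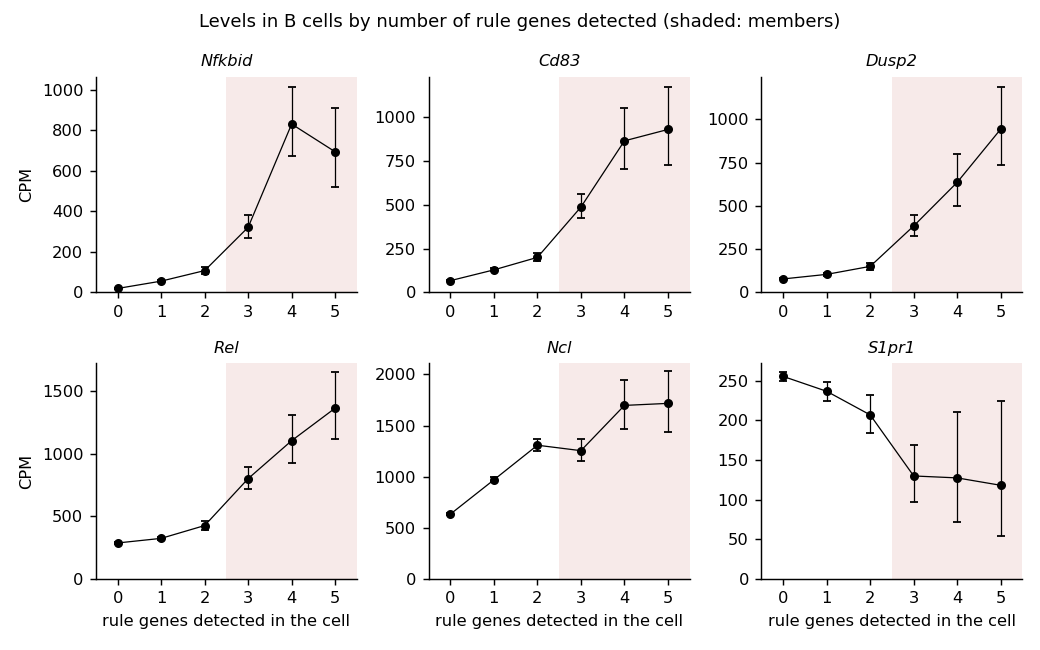
CPM of 6 genes in B cells, pooled over libraries, against the number of rule genes detected in the cell, with exact 95% Poisson intervals and the members shaded. The rule used the same detections. Nfkbid, Cd83, Dusp2 and Rel are higher at 3 to 5 than at 0 to 2 genes, Ncl is already at 1308 CPM at 2 genes, and S1pr1 is at 130 CPM or lower from 3 genes on.

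Levels within the members are given next by which rule genes a cell held, as a description: the split uses the same detections as the rule, and in members with exactly 3 rule genes the presence of 1 gene leaves fewer places for the others, so the splits by different genes are tied to each other. Of the 72 such members, 41 had Nr4a1 and 31 did not, 44 had Myc and 28 did not, and 45 had Egr1 and 27 did not. Nfkbid stood at 490 CPM with Nr4a1 and 129 CPM without, at 447 CPM with Myc and 141 CPM without, and at 165 CPM with Egr1 and 569 CPM without. Ncl followed the same directions, at 1491 and 982 CPM by Nr4a1, 1520 and 870 CPM by Myc, and 861 and 1873 CPM by Egr1. Junb stood at 234 CPM with Nr4a1 and 346 CPM without, and at 346 CPM with Egr1 and 192 CPM without. Of the 27 cells without Egr1, 19 held Nr4a1, Egr3 and Myc, so the splits by these genes compare many of the same cells. Over all members Nfkbid stood at 430 CPM with Egr1 (372 to 495) and 569 CPM without (458 to 697), intervals that overlap. Ncl stood at 1226 CPM with Egr1 (1126 to 1333) and 1873 CPM without (1668 to 2096). The splits are therefore not read as separate results on Nr4a1, Myc and Egr1.

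Surface protein took no part in the rule. I-A/I-E, the MHC class II protein, had median counts of 577, 455 and 432 for each member in libraries 1, 2 and 3, against 357, 325 and 319 in other B cells. CD24, a sialoprotein of B cells, had 509, 459.5 and 545, against 391, 352 and 412, and CD44, an adhesion receptor that rises on activation, 82, 74.5 and 73, against 65, 59 and 58. CD38 had 110, 110.5 and 115, against 101, 99 and 95. The quartiles over cells overlap for each, for instance 266.5 to 735 counts of I-A/I-E in members and 195 to 544 in other B cells. The total antibody count of the median cell was also higher in members, 2352, 2461 and 2764 against 2149, 2129 and 2214.

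Members had more UMIs, and the gaps to cells matched on UMI number were smaller. In matched other B cells the medians were 437, 359 and 444 for I-A/I-E, 567, 381 and 531 for CD24, 90, 71.5 and 84 for CD44 and 108, 111.5 and 114 for CD38, so that members were above them in 2 of 3 libraries for I-A/I-E, CD24 and CD38, and in 1 of 3 for CD44. Of 34 antibodies, 2 had a higher median in members than in matched cells in every library, by small margins: CD25, the IL-2 receptor alpha chain, with 11, 9.5 and 12 against 10, 9 and 11 counts, and CD5, which B1 cells carry, with 32, 35.5 and 38 against 29, 33 and 37 counts. The median total antibody count was 2648.5 in members and 2507.5 in matched cells. As a share of all antibody counts, CD25 was lower in members in library 2 (0.440 against 0.443%) and CD5 in library 3 (1.37 against 1.42%), and each was higher in the other libraries. The Cd5 message had 1 UMI in members (1.64 against 3.44 CPM in other B cells). CD86 protein, the costimulatory ligand of CD28, was level, with medians of 15, 14 and 18 in members, 17, 13.5 and 17 in matched cells and 16, 14 and 16 in other B cells. The share of all antibody counts held by CD86 was 0.53 times that of other B cells, but 28 other B cells with 200 or more CD86 counts held 49.7% of the counts of that population, against 0 such members, and without library 1 the ratio was 0.99.

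**Figure D5:**
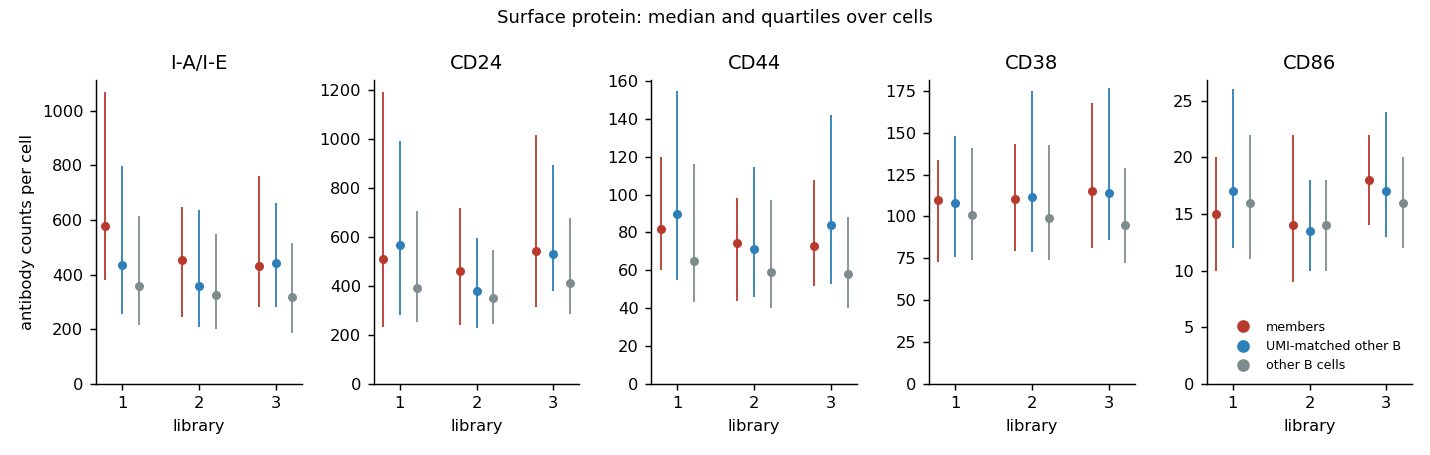
Antibody counts in single cells of libraries 1, 2 and 3 are plotted as the median (point) and quartiles (bar) in members (red), other B cells matched on UMI number (blue) and all other B cells (grey). Medians of I-A/I-E, CD24, CD44 and CD38 are higher in members than in all other B cells, and the quartile bars overlap.

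The limit was passed by other cells too. Of 4081 T cells (at least 2 CD3 UMIs, 0 of Cd79a), 60 had at least 3 of the 6 genes (1.47%, 1.12 to 1.89%), at a median depth of 5110 UMIs against 3290 in B cells. Thinned to 2000 UMIs, B cells passed at 0.692% (0.515 to 0.908%) and T cells at 0.627% (0.398 to 0.939%); these intervals overlap. Of 745 myeloid cells, 4 passed, all in library 1 (0.537%, 0.146 to 1.37%).

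Several of the same genes were higher in the T cells that passed. Pooled, Nfkbid stood at 189 CPM in T cells that passed and 17.9 CPM in other T cells (10.6-fold, beside 15.5-fold in B cells), Junb at 413 and 113 CPM (3.65-fold, beside 4.12-fold), Rel at 343 and 83.1 CPM (4.13-fold, beside 3.11-fold) and Cd69 at 308 and 56.5 CPM (5.45-fold, beside 3.16-fold). Nr4a3 was counted at 146 and 3.06 CPM in T cells, detected in 20 of 60 cells, where it was found in 6 of 108 B cell members. Cd83 stood at 29.7 and 10.2 CPM in T cells, far under the 616 CPM of B cell members, and Ccnd2 (613 and 510 CPM) and Pim1 (111 and 96.2 CPM) were nearly level, against 3.60-fold and 3.40-fold in B cells. The difference between the cell types in these ratios was not tested.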

How the data were processed

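Splenocytes pooled from 5 mice for each of 3 groups were profiled by CITE-seq. The authors deposited 1 matrix of raw counts, whole UMIs for every gene or antibody in every barcode. Cell Ranger 5.0.1 stands in its header, while Seurat and the mm10 build come from the processing notes of the submitters. For subsampling on joining the libraries, the setting was not given in the sources used here. Depth over kept cells was 20032690, 32270524 and 35697547 RNA UMIs in libraries 1, 2 and 3.

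Members and gene lists were chosen with earlier results of these data known. Counts were summed over cells in each library and given as CPM with exact Poisson 95% intervals, and shares with Clopper-Pearson intervals. A count of 0 was given the upper end of its interval. A gene of at least 25 CPM (mean of members and other B cells) was called at 2-fold or 0.5-fold in each of 3 libraries. List medians used log2 of CPM plus 5. Shares were compared after thinning to 1000 UMIs (107 of 108 members, 8841 of 9462 other B cells kept) or 2000 UMIs (7375 of 9570 B cells and 3671 of 4081 T cells kept). Doublets were limited by the gene maximum, with Scrublet (scanpy 1.11.5) as an alternative. Coordinates came from GENCODE (mm10) and sequences from RefSeq.

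Genes named are the rule genes, the 6 most counted of each list, the 15 most higher and 10 most lower genes (immunoglobulin and T cell receptor genes left out), and antibodies. Immunoglobulin genes, genes of unusual cells, sparse list members such as Fos and Nr4a3, and the called genes Kdm6b, Il4i1, Mapk6 and Gm26669 were named after their values were seen. Some genes are not reported here.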

Additional observations from a re-analysis of the deposited data

How the results depend on the processing

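No paired analysis was possible because the libraries cannot be tied to groups and no test was made. Of 82 alternative values for the 6 main results, 65 were classed as the same, 16 as moved and 1 as reversed. The class of the same was wide. It held a CD86 ratio of 0.99 without library 1, where the main ratio was 0.53. It also held 61 higher genes without library 2, where the main count was 41. Requiring 2 or 4 of the rule genes gave a share of members of 3.64% or 0.376% and 6 or 60 lower genes (41 or 44 higher, sharing 22 or 21 of the 41), and thinning cells to 2000 UMIs gave 0.692%. Lower genes numbered 5 against matched cells and 39 with each cell's own CPM averaged. A minimum of 5 CPM gave 67 higher and 107 lower genes, and one of 100 CPM gave 22 and 12. The CD86 ratio was 1.17 from medians, opposite in direction to the 0.53 from shares. Leaving out 1 library at a time gave shares of 0.949 to 1.25%, 61 to 69 higher genes (69 without library 1, 61 without library 2, 67 without library 3), 41 to 58 lower genes (49 without library 1, 41 without library 2, 58 without library 3), medians of 0.45 to 0.86 for early genes and 0.40 to 0.73 for ribosome biogenesis, and CD86 ratios of 0.39 to 0.99. The counts rise because fewer libraries must meet the limit. The median of early genes was 0.45 without library 3. With 17 members in library 1, a gene at 25 CPM there has about 3 UMIs, so its ratio in that library rests on few counts. Called in 1 library alone, 350, 261 and 162 genes were lower in libraries 1, 2 and 3, and 604, 239 and 195 were higher. The settings without 4 outlying members and without cells rich in haemoglobin or myeloid RNA were chosen after seeing the data.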
